A study of Mus musculus with 6 samples.

Results

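The Hox cluster genes of the mouse were examined in whole adrenal glands on Illumina bead arrays. Members were all probes whose deposited symbol was Hox, a cluster letter from a to d and a number, which gave 57 of the 45281 probes on the array, for 39 genes. Glands came from adult female mice, virgin, of the strain B6.FVB, as 3 control samples from mice described as normal and 3 samples labelled as conditional knockouts (cKO) of Gata6, a zinc finger transcription factor gene. Neither the promoter that drove the deletion nor the targeted allele is named in the labels. Since nothing in the labels ties the samples to separate animals, p-values here reflect the spread among these 6 samples only, and that spread may be technical. The comparison asks which transcripts differ in the gland when Gata6 has been deleted, and here it is read for the Hox genes.

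Hox genes encode homeodomain transcription factors that give cells their place along the head-to-tail axis of the embryo. They lie in 4 clusters, HoxA to HoxD, in which the order of the genes on the chromosome follows the order in which they are used along the axis, with low-numbered (anterior) paralogs used towards the head and high-numbered (posterior) paralogs towards the tail. Genes with the same number in different clusters are paralogs. Adult tissues keep part of the pattern of the body level from which their cells came, and mesenchymal cells are known for doing so. Hox proteins bind DNA together with TALE-class homeodomain cofactors of the Pbx, Meis and Pknox families, and their clusters are kept active or silent by trithorax and Polycomb proteins.

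Before the results, the libraries were checked against their labels. Between 18314 and 19459 probes were detected per array at a detection p-value under 0.05, and with 3 arrays in each group precision is limited. Of 10 markers of the adrenal cortex 9 were bright enough to be tested, and Fdx1 was detected on 0 arrays. Gata6 itself read 11.80, 11.66 and 11.71 log2 units on control arrays 1, 2 and 3 and 11.99, 12.06 and 12.31 on the cKO-labelled arrays. It was thus higher, not lower, on the cKO-labelled arrays, by 0.40 (SE 0.10, limma, adjusted p = 0.0545). Whether that probe lies within the deleted part is unknown here, and it may check nothing. All directions given compare cKO-labelled arrays with control arrays. Levels are background-corrected, quantile-normalized log2 signals, differences are log2 values of cKO-labelled arrays minus control, and folds are on that offset scale, which understates changes of dim probes.

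The adrenal gland showed transcripts from all 4 clusters. A detected probe was seen on at least 1 array for 22 of the 39 genes, on all 6 arrays for 18 genes, and 24 probes of 21 genes were detected on at least 3 arrays and so could be tested. That is 42.1% of the Hox probes, beside 42.4% of all probes on the array. Detection on at least 1 array was seen for 26 Hox probes, 45.6%, beside 48.7% of all probes, and detection on all 6 for 20, 35.1%, beside 36.6%. The remaining genes cannot be called silent, since a probe below the detection threshold gives only a bound.

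**Figure D1:**
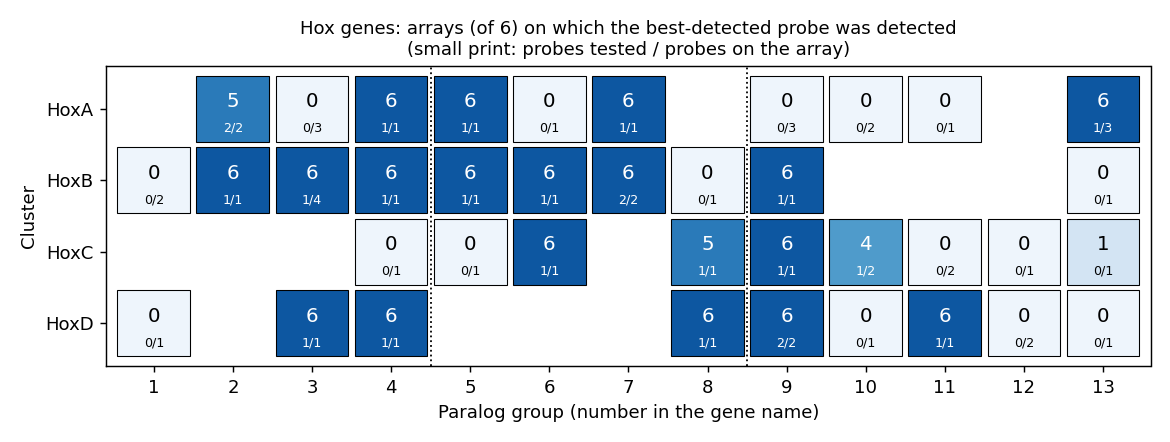
Detection of Hox genes by cluster (rows) and paralog group (columns). The large number and the shade give the arrays, of 6, on which the best-detected probe of the gene was detected, and the small print gives tested probes over probes on the array; dotted lines part anterior (1 to 4), central (5 to 8) and posterior (9 to 13) groups. The central stretch of HoxB is detected almost throughout, and 9 genes detected on 0 arrays are posterior.

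By position, transcripts were detected most often in the middle of the clusters. Of 11 genes of the central groups 5 to 8, 8 were tested, against 7 of 12 anterior genes and 6 of 16 posterior genes. HoxB was the most completely represented cluster: Hoxb2, Hoxb3, Hoxb4, Hoxb5, Hoxb6, Hoxb7 and Hoxb9 were detected on all 6 arrays, a run broken only at Hoxb8, whose 1 probe was detected on 0 arrays, as were those of Hoxb1 and Hoxb13. In HoxA, 5 of 11 genes were tested, namely Hoxa2, Hoxa4, Hoxa5, Hoxa7 and Hoxa13, while Hoxa3, Hoxa6, Hoxa9, Hoxa10 and Hoxa11 were detected on 0 arrays. In HoxC, 4 of 9 were tested, Hoxc6, Hoxc8, Hoxc9 and Hoxc10. Hoxc13 was detected on 1 cKO-labelled array, and Hoxc4, Hoxc5, Hoxc11 and Hoxc12 on 0 arrays. In HoxD, 5 of 9 were tested, Hoxd3, Hoxd4, Hoxd8, Hoxd9 and Hoxd11, while Hoxd1, Hoxd10, Hoxd12 and Hoxd13 were detected on 0 arrays.

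Probes of a gene did not always give the same answer on detection. Of 4 Hoxb3 probes 1 was detected on all 6 arrays, and another, ILMN_1232276, was detected on 2 cKO-labelled arrays and 0 control arrays, with deposited signals of 11.4, 18.7 and 21.2 against 2.91, -0.644 and -1.14. Of 3 Hoxa13 probes 1 was detected on all 6 arrays and the others on 0, and of 2 Hoxc10 probes 1 was detected, on 4 arrays. Both Hoxd9 probes, both Hoxb7 probes and both Hoxa2 probes were detected. Which part of a transcript each probe reads is not stated in the files. Of probes outside the membership rule, the antisense transcript listed as Hoxa11s and a clone-named probe that the RefSeq table assigns to Hoxd11 were each detected on 0 arrays.

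The number of detected Hox probes was 24, 24 and 23 on control arrays 1, 2 and 3 and 21, 25 and 25 on the cKO-labelled arrays. The ranges overlap. Array 1 labelled cKO was the lowest, where 4 HoxA probes were detected in place of the 6 on every other array, because both Hoxa2 probes fell below the threshold there.

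Between the groups, 2 of the 24 tested Hox probes passed the threshold of an adjusted p under 0.05: Hoxa7 was lower and Hoxd9 was higher on the cKO-labelled arrays. That is 8.33% of the Hox probes, beside 6.49% of all 19210 probes tested, a share near the background. Of all probes tested, 3.92% were called higher and 2.57% lower. In 8 of the 24 Hox probes the 3 arrays of a group lay entirely to a side of the other group, 33.3%, beside 28.1% of all probes. The median difference over the 21 Hox genes was -0.15, beside -0.01 over all 13327 genes. By gene, 13 lay below 0 and 8 above.

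Sequence upstream of the 2 called genes is shown because Gata6 encodes a factor that binds GATA letters. Promoter windows of 300 bases, 250 before and 50 after the annotated start, are from RefSeq (GRCm38.p6), which matched 22 of the 39 Hox genes. Capitals mark the letters AGATAA on either strand, with T also allowed as the first letter and G as the last. The Hoxa7 window lies at chr6:52218524-52218823 on the minus strand and the Hoxd9 window at chr2:74697513-74697812 on the plus strand.
Hoxa7: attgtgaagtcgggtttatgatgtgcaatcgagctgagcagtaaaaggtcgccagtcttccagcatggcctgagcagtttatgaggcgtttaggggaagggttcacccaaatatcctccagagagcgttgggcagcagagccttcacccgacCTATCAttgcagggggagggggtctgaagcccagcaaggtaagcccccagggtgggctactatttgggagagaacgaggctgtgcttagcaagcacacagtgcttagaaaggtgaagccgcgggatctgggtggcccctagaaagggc
Hoxd9: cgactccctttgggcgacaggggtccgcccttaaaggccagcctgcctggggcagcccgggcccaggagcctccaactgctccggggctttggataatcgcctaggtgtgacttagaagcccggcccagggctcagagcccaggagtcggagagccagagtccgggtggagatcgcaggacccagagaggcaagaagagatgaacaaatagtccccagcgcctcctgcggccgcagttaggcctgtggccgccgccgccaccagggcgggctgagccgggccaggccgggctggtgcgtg
The Hoxa7 window held 1 such match, TGATAG read on the opposite strand, starting 98 bases before the annotated start, and the Hoxd9 window held 0. Of all 32851 promoter windows 29.8% held a match, and among Hox windows it was 2 of 11 for tested genes and 5 of 13 for genes not tested. A match is a description of letters and not a binding site. The Hoxa7 window held 9 CG pairs and the Hoxd9 window 20, beside a median of 7.0 over all windows and 14 over the windows of the tested Hox genes. The letters TGATNNAT, to which Hox and Pbx proteins bind together, were in neither window and in 8.85% of all windows (both strands, which can overlap a GATA match).

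Hoxa7, a central HoxA gene that acts in the patterning of the thoracic vertebrae, fell. Its 1 probe (ILMN_2621038) read 9.10, 9.16 and 9.40 log2 units on control arrays 1, 2 and 3 and 8.50, 8.51 and 8.50 on the cKO-labelled arrays. The groups do not overlap, and the cKO-labelled arrays lie close together. As deposited, before normalization between arrays, the signals were 507, 521 and 710 in controls, against 326, 352 and 390 on the cKO-labelled arrays. The difference was -0.71 (SE 0.12, limma, adjusted p = 0.0117), a level 1.64-fold lower. Without cKO replicate 3 it was -0.71 and did not pass (limma, adjusted p = 0.0502), and over the other alternatives Hoxa7 passed.

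Hoxd9, a posterior HoxD gene used at lumbar levels and in the limb, rose by its brighter probe (ILMN_2800183). That probe read 7.71, 7.28 and 7.27 in controls, against 8.13, 7.95 and 8.48 on the cKO-labelled arrays. Every cKO-labelled array lies above the highest control array. The difference was 0.77 (SE 0.19, limma, adjusted p = 0.0476), a level 1.70-fold higher. The second Hoxd9 probe (ILMN_1216475) read 7.10, 6.97 and 6.70 in controls, against 7.78, 7.31 and 8.03 on the cKO-labelled arrays, again without overlap. Its difference of 0.78 (SE 0.21) did not pass (limma, adjusted p = 0.0612). The call on Hoxd9 is therefore at the threshold. The brighter probe lost it without control replicate 2 (0.70, limma, adjusted p = 0.139), control replicate 3 (0.69, adjusted p = 0.113), cKO replicate 1 (0.79, adjusted p = 0.0763), cKO replicate 2 (0.88, adjusted p = 0.0635) and cKO replicate 3 (0.62, adjusted p = 0.159). It also lost it with an offset of 50 (0.66, limma, adjusted p = 0.0508), with no filter (adjusted p = 0.0526), with no intensity trend (adjusted p = 0.0539) and with the replicate number as a block (adjusted p = 0.0628). With median scaling both Hoxd9 probes passed, at 0.87 (limma, adjusted p = 0.0349) and 0.90 (adjusted p = 0.0355).

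**Figure D2:**
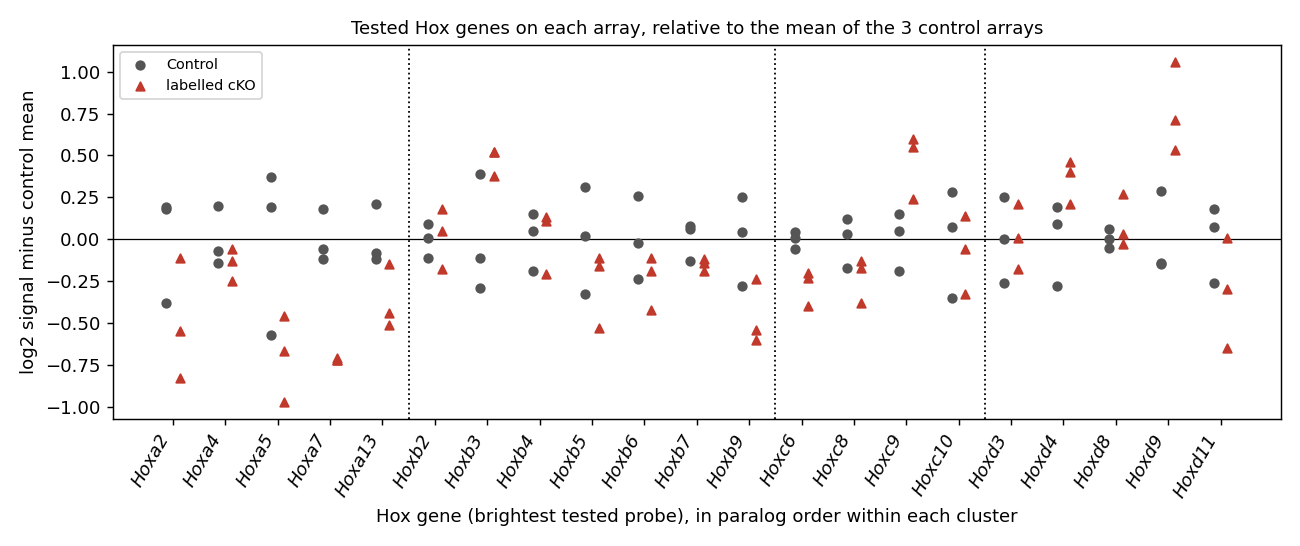
Log2 signal of the 21 tested Hox genes on each array, minus the mean of the 3 control arrays of that gene, for the brightest tested probe; grey circles are control arrays, red triangles cKO-labelled arrays, and dotted lines part the clusters. Triangles lie below the circles for Hoxa7 (8.50 to 8.51 against 9.10 to 9.40 in log2 signal) and above them for Hoxd9, and overlap them for most other genes.

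The remaining HoxA genes read lower on average without passing. Hoxa5, which acts in lung and thoracic development, read 8.76, 9.52 and 9.70 in controls, against 8.36, 8.87 and 8.66 on the cKO-labelled arrays. Control replicate 1 lay within the range of the cKO-labelled arrays, so the groups overlap. The difference was -0.69 (SE 0.24, 95% interval -1.25 to -0.14, limma, adjusted p = 0.132), and without control replicate 1 it was -0.98 and passed (adjusted p = 0.0238). Hoxa2, which sets the identity of the second pharyngeal arch and hindbrain, read 5.46, 6.02 and 6.03 in controls, against 5.01, 5.29 and 5.73 on the cKO-labelled arrays by its brighter probe. These values are near the lowest detected signals of 5.11 to 5.25, and the groups overlap. Its probes differed by -0.49 (SE 0.23) and -0.38 (SE 0.18), neither past the threshold (limma, adjusted p = 0.252 and 0.242). Hoxa13, the most posterior HoxA gene and known from the distal limb and genital tubercle, read 6.90, 6.57 and 6.61 in controls, against 6.54, 6.18 and 6.25 on the cKO-labelled arrays. These do not overlap, by a narrow gap, and the difference of -0.37 (SE 0.17) did not pass (limma, adjusted p = 0.240). Hoxa4 differed by -0.14 (SE 0.16, 95% interval -0.50 to 0.21), and by 0.00 with median scaling.

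HoxB, the cluster with the most tested genes, had 0 called. Hoxb7, which was bright by both probes, differed by -0.15 (SE 0.08, 95% interval -0.34 to 0.04) and -0.04 (SE 0.09, 95% interval -0.25 to 0.17), so a change as large as that of Hoxa7 lies outside both intervals. Hoxb2, which acts in the hindbrain, differed by 0.02 (95% interval -0.25 to 0.30) and Hoxb4, known from blood stem cells, by 0.01 (95% interval -0.34 to 0.36). Hoxb5, which acts in vagal neural crest, and Hoxb6 read -0.26 (SE 0.17) and -0.24 (SE 0.14). Hoxb9, the most posterior HoxB gene detected, read 7.89, 8.42 and 8.21 in controls, against 7.93, 7.57 and 7.63 on the cKO-labelled arrays. Control replicate 1 lay below the highest cKO-labelled array, and the difference of -0.46 (SE 0.17) did not pass (limma, adjusted p = 0.159). Hoxb3 read 5.80, 5.62 and 6.30 in controls, against 6.43, 6.29 and 6.43 on the cKO-labelled arrays. The groups overlap at their edges, and the difference was 0.48 (SE 0.20, limma, adjusted p = 0.187).

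HoxC also had 0 genes called. Hoxc6, a thoracic-level gene, read 11.91, 11.88 and 11.81 in controls, against 11.64, 11.47 and 11.67 on the cKO-labelled arrays. The groups do not overlap, and the difference was small at -0.27 (SE 0.09, limma, adjusted p = 0.106). Hoxc9, which marks thoracic motor neuron levels, read 6.52, 6.76 and 6.86 in controls, against 7.26, 7.31 and 6.95 on the cKO-labelled arrays. These do not overlap either, and the difference of 0.46 (SE 0.17) did not pass (limma, adjusted p = 0.145). Hoxc8 differed by -0.22 (SE 0.15) and was detected on 2 of the 3 cKO-labelled arrays, and Hoxc10, near the background, differed by -0.08 (SE 0.20).

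Of the other HoxD genes, Hoxd4, which acts in the upper cervical vertebrae and hindbrain, read 7.27, 6.80 and 7.17 in controls, against 7.54, 7.29 and 7.48 on the cKO-labelled arrays. The groups part by a narrow gap, and the difference of 0.36 (SE 0.17) did not pass (limma, adjusted p = 0.253). Hoxd8 differed by 0.09 (SE 0.11, 95% interval -0.17 to 0.34) and Hoxd3 by 0.02 (SE 0.18, 95% interval -0.40 to 0.43). Hoxd11, which with its HoxA paralog acts in kidney and forelimb development, differed by -0.31 (SE 0.21, limma, adjusted p = 0.416).

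**Figure D3:**
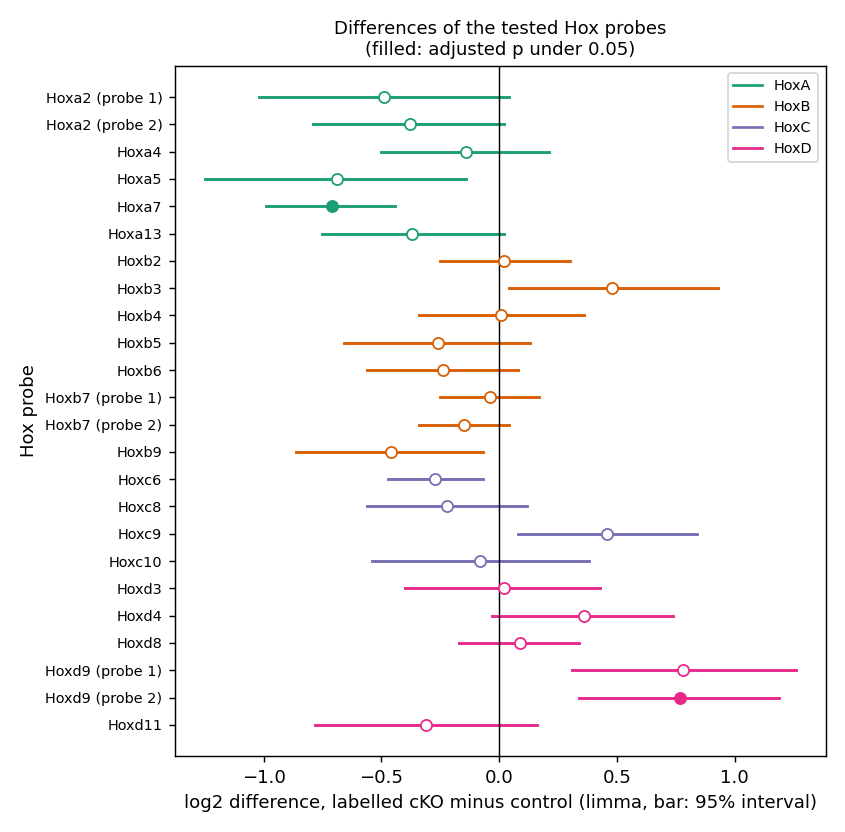
Log2 difference of each of the 24 tested Hox probes, cKO-labelled arrays minus control, with its 95% interval from limma, coloured by cluster; filled points passed an adjusted p under 0.05. Filled points are Hoxa7 at -0.71 and the brighter Hoxd9 probe at 0.77, all HoxA points lie left of 0 (with median scaling Hoxa4 is at 0.00 and on the other side), and most other intervals cross 0.

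Set side by side, the clusters had medians of -0.49 for HoxA, -0.15 for HoxB, -0.15 for HoxC and 0.09 for HoxD. All 5 tested HoxA genes lay below 0 (4 of 5 with median scaling) and 4 of 5 HoxD genes above it, while HoxB had 3 above and 4 below and HoxC 1 above and 3 below. With median scaling the HoxA median was -0.38 and the HoxD median 0.15. The mean of the tested HoxA genes, relative to the control mean, was -0.18, 0.08 and 0.11 in controls, against -0.58, -0.46 and -0.41 on the cKO-labelled arrays. The groups do not overlap, and without Hoxa7 the cKO-labelled arrays lay at -0.55, -0.39 and -0.33 against -0.20, 0.11 and 0.09. With median scaling and without Hoxa7 they overlapped, at -0.52, -0.30 and -0.14 against -0.20, 0.07 and 0.13. The HoxD mean was 0.09, -0.13 and 0.04 in controls, against 0.13, 0.16 and 0.26 on the cKO-labelled arrays. Without Hoxd9 these also overlapped, at 0.05, -0.13 and 0.08 against -0.01, 0.07 and 0.06, so the HoxD mean rests on Hoxd9. Without cKO replicate 3 the HoxD median was -0.01, with 2 genes above 0 and 3 below, and without control replicate 2 HoxD had 3 above and 2 below. HoxC had 2 above and 2 below without control replicate 2 or cKO replicate 1, and HoxB had 1 above and 6 below without cKO replicate 2. With detection required on all arrays at p under 0.01 fewer genes were tested, and the medians were 0.09 over 2 HoxC genes and 0.36 over 3 HoxD genes. The HoxA median lay between -0.68 and -0.29 over the alternatives run. By position, 5 of 7 anterior genes lay above 0, 7 of 8 central genes below 0, and 4 of 6 posterior genes below 0. The medians were 0.02, -0.25 and -0.2. Among the anterior genes above 0, Hoxb2, Hoxb4 and Hoxd3 lay at only 0.02, 0.01 and 0.02. These splits are given without a test.

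**Figure D4:**
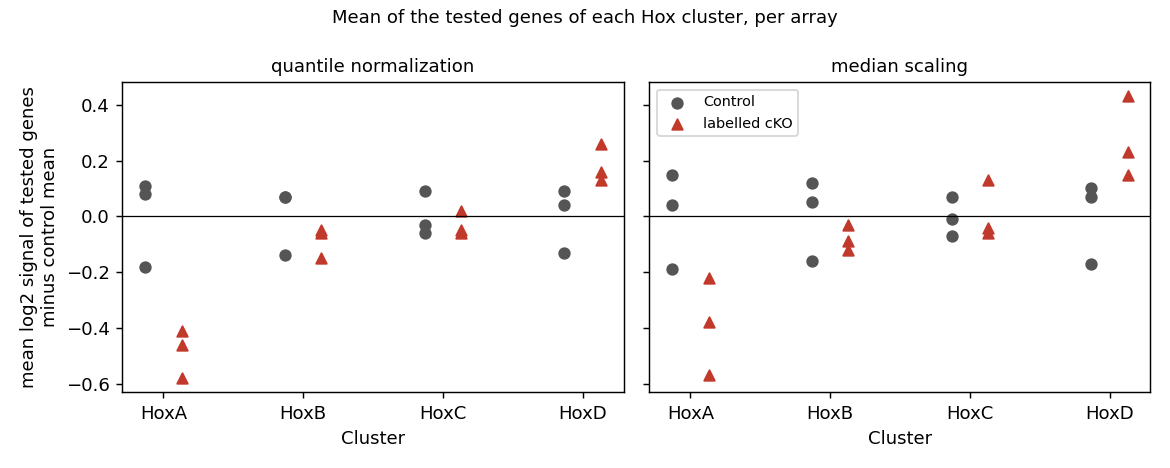
Mean log2 signal of the tested genes of each cluster on each array, minus the control mean, with quantile normalization on the left and median scaling on the right; grey circles are control arrays and red triangles cKO-labelled arrays. HoxA triangles lie below all HoxA circles and HoxD triangles above all HoxD circles in both panels, and HoxB and HoxC overlap.

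The array reads a whole gland, in which fewer cells of a type and less RNA per cell cannot be told apart, and markers of several other cell types differed between the same groups. The counts below stand beside 6.98% of all genes called, 4.34% higher and 2.64% lower. Of 12 tested capsule and mesenchyme markers 7 rose and 0 fell, and their mean log2 level was 9.11 to 9.20 in controls, against 9.87 to 10.3 on the cKO-labelled arrays; Gli1 and Postn were detected on 0 arrays. Of 11 tested chromaffin cell markers 3 rose, with means of 11.27 to 11.64 against 11.90 to 12.14, and of 10 tested fat markers 4 rose, with means of 10.21 to 10.46 against 10.52 to 11.92 and Fabp4 and Retn on 0 arrays. Of 3 tested Schwann cell and nerve markers 1 rose, with means of 7.20 to 7.44 against 7.76 to 8.09, and S100b and Cdh19 were detected on 0 arrays. The part of these cells in the Hoxa7 and Hoxd9 differences was not tested. Of 14 kidney markers 3 were tested with 0 called, with means of 6.80 to 7.05 against 6.78 to 6.84. Slc12a3 and Slc12a1 were detected on every array, with means of 9.23 and 6.27 in controls against 9.01 and 6.16. The kidney markers detected on 0 arrays numbered 9, among them Umod, Kap, Aqp2, Pax2 and Pax8. Endothelial markers had 0 of 7 called, with means of 10.14 to 10.43 against 10.06 to 10.37, and skeletal muscle markers 0 of 2, with means of 7.15 to 7.51 against 7.06 to 7.14. Of 6 tested lymphocyte and myeloid markers 1 fell, the macrophage gene Cd68 at -1.13 (SE 0.16, limma, adjusted p = 0.00565), with list means of 7.79 to 8.05 against 7.58 to 7.93 and Ptprc on 0 arrays. Of the 9 tested adrenal cortex markers 1 rose, the ACTH receptor gene Mc2r at 0.54 (SE 0.10, limma, adjusted p = 0.0146), with list means of 11.98 to 12.22 against 12.02 to 12.07.

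Genes that work with Hox proteins were read from lists chosen with earlier results of these data known. Of 9 TALE cofactor genes 8 were tested, and 2 rose and 0 fell, with a median of 0.39, beside -0.01 over all genes and 6.98% of all genes called (4.34% higher and 2.64% lower). Pknox2 read 5.67, 5.48 and 5.41 in controls, against 7.01, 6.38 and 7.40 on the cKO-labelled arrays. The groups do not overlap, and the rise of 1.41 (SE 0.25, limma, adjusted p = 0.0145) failed without control replicate 2 (1.39, limma, adjusted p = 0.0541). The Pknox2 control values lie near the lowest detected signals on control arrays, 5.16 to 5.25, so the size of this rise is uncertain. It was 0.98 with an offset of 50 and 1.53 with median scaling. Pbx3 read 10.53, 9.88 and 10.38 in controls, against 10.87, 11.37 and 11.08 on the cKO-labelled arrays, also without overlap. It rose by 0.85 (SE 0.18, limma, adjusted p = 0.0318), and its second probe passed at 0.82 (adjusted p = 0.0484). The first Pbx3 probe did not pass without control replicate 2 (0.66, limma, adjusted p = 0.0751) or 3 (0.90, adjusted p = 0.0572), without cKO replicate 2 (0.71, adjusted p = 0.101) or 3 (0.86, adjusted p = 0.103), or with the replicate block (adjusted p = 0.0629) or no trend (adjusted p = 0.0549). Meis1 and Meis2 differed by 0.19 (SE 0.11) and -0.11 (SE 0.17), and neither passed.

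**Figure D5:**
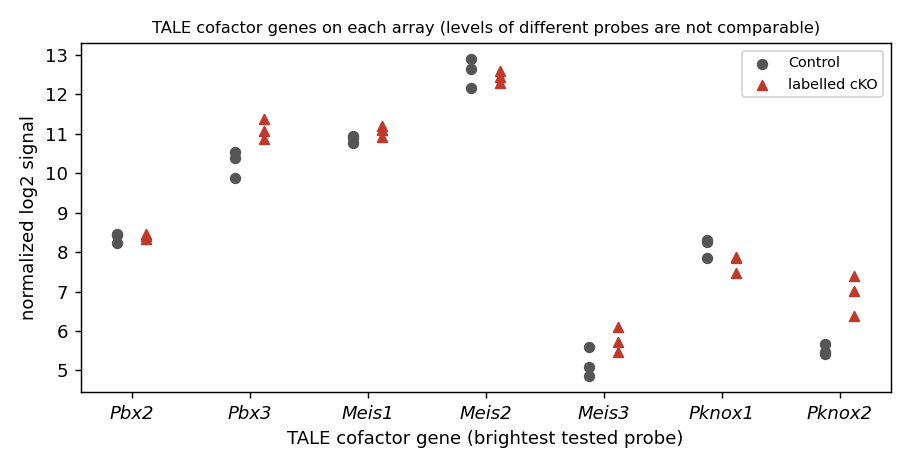
Normalized log2 signal of 7 of the 8 tested TALE cofactor genes on each array, by the brightest tested probe; grey circles are control arrays and red triangles cKO-labelled arrays. Pbx3 and Pknox2 triangles lie above all their circles, and levels of different genes are read by different probes and are not to be compared.

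Of 18 tested chromatin regulators of Hox clusters, which include the trithorax gene Kmt2a and the Polycomb genes, 1 fell and 0 rose, with a median of 0.06, beside 2.64% of all genes called lower and 6.98% called in all, so the count is near the background. The gene was Ezh2, which encodes the methyltransferase of Polycomb repressive complex 2 and is also expressed in dividing cells. It read 8.23, 7.90 and 7.90 in controls, against 7.56, 7.15 and 7.07 on the cKO-labelled arrays, without overlap. The difference was -0.75 (SE 0.18, limma, adjusted p = 0.0413), and it did not pass with median scaling (-0.64, adjusted p = 0.0599) or without control replicate 1 (-0.64, adjusted p = 0.123), 2 (-0.81, adjusted p = 0.0877) or 3 (-0.81, adjusted p = 0.0697) or cKO replicate 2 (-0.70, adjusted p = 0.126) or 3 (-0.66, adjusted p = 0.144). The complex partners Suz12 and Eed differed by -0.04 (SE 0.10) and 0.07 (SE 0.17), and Kmt2a by 0.06 (SE 0.13).

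Retinoic acid switches on anterior Hox genes in the embryo, and of 11 tested genes for its receptors and handling 1 rose and 1 fell, with a median of -0.17, beside 6.98% of all genes called. Crabp1, a cellular carrier of retinoic acid, read 6.49, 6.24 and 6.70 in controls, against 5.33, 5.25 and 5.19 on the cKO-labelled arrays, near the lowest detected signals, so the size of its fall of -1.22 (SE 0.16, limma, adjusted p = 0.00468) is uncertain. Of the Cdx, ParaHox and Evx genes, 7 of 8 were detected on 0 arrays, and Evx1, next to Hoxa13, lay near the background at a difference of 0.02 (SE 0.14).

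The genes on each side of the clusters were read as well, 3 named protein-coding neighbours a side in the RefSeq table (GRCm38.p6). Of these 24 genes 22 matched a probe and 17 were tested, with a median of 0.02 and with 1 higher and 1 lower, beside 6.98% of all genes called. Both called genes lie beyond the anterior end of HoxA and moved in opposite directions. Skap2, the nearest, a signalling adaptor of blood cells, fell from 11.22, 11.41 and 11.34 to 10.99, 10.85 and 10.84, a difference of -0.43 (SE 0.09, limma, adjusted p = 0.0301). Its call was lost without control replicate 2 (-0.38, adjusted p = 0.103) or 3 (-0.42, adjusted p = 0.0744) or cKO replicate 2 (-0.41, adjusted p = 0.0927) or 3 (-0.40, adjusted p = 0.116), with no filter (adjusted p = 0.0566), with no trend (adjusted p = 0.0681) and with the replicate block (adjusted p = 0.0748). Snx10, a sorting nexin, rose from 9.13, 8.98 and 8.91 to 9.84, 9.51 and 9.52, a difference of 0.62 (SE 0.13, limma, adjusted p = 0.0268). Its call was lost without control replicate 2 (0.60, adjusted p = 0.0823) or 3 (0.57, adjusted p = 0.0697) or cKO replicate 2 (0.67, adjusted p = 0.0546) or 3 (0.67, adjusted p = 0.0691). On the other side, Hibadh, past Evx1, differed by -0.05 (SE 0.11). Beside HoxD, Mtx2 and Nfe2l2 at the Hoxd1 end differed by 0.35 (SE 0.19) and 0.26 (SE 0.17), and Atp5g3 at the other end by -0.09 (SE 0.08). Beside HoxB, Skap1 and Snx11 differed by -0.07 (SE 0.17) and 0.06 (SE 0.10). Beside HoxC, Cbx5, which encodes a heterochromatin protein, differed by -0.45 (SE 0.15), Atp5g2 by -0.30 (SE 0.10), and Calcoco1, Atf7, Smug1 and Hnrnpa1 by 0.06, -0.07, 0.10 and 0.17. None of these passed (limma, over all probes). Past Snx10 and Hibadh on the HoxA sides, Cbx3 differed by 0.17 (SE 0.21) and Tax1bp1 by 0.01 (SE 0.10).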

How the data were processed

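Biotin-labelled cRNA was made from total RNA with an Ambion kit, per the labels' protocols. The signals the authors deposited are linear intensity values, not normalized between arrays, and values below 0 show a prior background subtraction. A detection p-value was deposited for each signal. The authors' series matrix gives normalized intensity values of the same arrays, and the method is not stated in the labels. Signals were corrected with normexp from the detection p-values (offset 16) in limma 3.58.1 under R 4.3.3, put on the log2 scale and quantile normalized. Probes with detection p under 0.05 on at least 3 of 6 arrays were tested with limma's empirical Bayes model with an intensity trend, two-sided, without covariates, and Benjamini-Hochberg adjusted over all 19210 probes. A gene with several tested probes was represented by the brightest. Older symbols were updated through the RefSeq table. In the series matrix alternative, values below 0 were set to 0 and 16 was added. The fit was tested on simulated data. Tested Hox genes are named, with all arrays given for called genes and the 8 largest differences, and of other lists the called genes or the brightest, plus all tested neighbours; Meis1, Meis2, Suz12, Eed and Kmt2a were added after their values were seen. The members and lists were chosen with earlier results of these data known. Same-numbered arrays did not deviate together (r of deviations 0.0437, 0.0364 and -0.0148). A few genes counted in the totals are not reported here by name.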

Additional observations from a re-analysis of the deposited data

How the results depend on the processing

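Over 15 alternatives the 24 tested Hox probes gave 353 comparisons, of which 325 kept direction and side of the threshold. The count of called Hox probes, 2 in the analysis as reported, was 1 with an offset of 50, with no filter, with no intensity trend and with the replicate block, and ranged from 0 (without cKO replicate 3) to 3 (without control replicate 1) with an array left out. Direction changed for probes whose difference was near 0: Hoxa4 at 0.00 with median scaling, Hoxb4 at -0.06 with array weights, and, over the arrays left out in turn, Hoxb2 (-0.06 to 0.12), a Hoxb7 probe (-0.10 to 0.01), Hoxb4 (-0.08 to 0.12), Hoxc10 (-0.26 to 0.06), Hoxd3 (-0.11 to 0.14) and Hoxd8 (-0.01 to 0.15). The second Hoxd9 probe passed with median scaling, under robust variances (limma, adjusted p = 0.0447), when arrays were weighted (adjusted p = 0.0459) and in the fit lacking cKO replicate 2 (0.98, adjusted p = 0.0351). All probes called numbered 1247, and 518 to 1273 with an array left out (328 to 783 higher and 190 to 490 lower), lowest without cKO replicate 3. Called TALE genes numbered 1 with detection on all arrays at p under 0.01, with no trend and with the replicate block, and 0 to 2 with an array left out. Called chromatin regulators numbered 0 with median scaling and 0 to 1 with an array left out, retinoic acid genes 4 with array weights and 2 to 3 with an array left out, and called neighbours 1 with no filter, no trend or the replicate block and 0 to 2 with an array left out. The cause was not tested. Same-numbered arrays share a replicate number and stand side by side in the deposited sample order, and their titles state no pairing. The replicate block left 960 probes called in all, and 1 Hox probe, Hoxa7 (-0.71, adjusted p = 0.0277). Signals near background limit Hoxa2, Hoxb3, Hoxc8, Hoxc10, Hoxd3 and Hoxd11.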
